A study of Mus musculus with 6 samples.

Results

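The nuclear genes of the mitochondrial respiratory chain and of ATP synthase were followed in tumours grown in mice with and without tenascin-C. Members were taken by gene symbol: every probe set of the deposited table with a single symbol beginning with Ndufa, Ndufb, Ndufc, Ndufs, Ndufv, Uqcr, Cox4i, Cox5, Cox6, Cox7 or Cox8, or with Atp5 and a further letter, together with Sdha, Sdhb, Sdhc, Sdhd and Cyc1. This gave 180 probe sets for 91 genes, of 34945 single-symbol probe sets for 18193 genes. A further 10 probe sets list a member beside another gene and were left out. Their differences between the groups lay between 0.236 and 17.9 millionths of a log2 unit, with adjusted p-values of 0.185 to 0.805 (limma, Benjamini-Hochberg). Where a gene had more than 1 probe set, the brightest by its mean level stands for it unless another is named. By complex, the 91 genes are 36 of complex I, 8 assembly factors whose symbols begin with Ndufaf, 4 of complex II, 9 of complex III, 17 of complex IV and 17 of ATP synthase.

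The respiratory chain passes electrons from NADH and succinate through complexes I to IV to oxygen and pumps protons across the inner mitochondrial membrane, and ATP synthase lets the protons flow back to make ATP. Most subunits are nuclear genes, imported after translation, while a small set of core subunits is encoded in mitochondrial DNA and is not among the genes followed here. Some complex IV subunits exist as a general form and as a form restricted to heart and skeletal muscle, also used in brown fat, so that a sample's cell mixture bears on which form is measured.

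The hosts were male mice of strain GRS/A, either wild type (WT, 3 mice) or of the tenascin-C-deficient line GRS/A-TgH(TnC) (TNKO, 3 mice). They were 8 weeks old at the start of the assay, and the samples are labelled with a host age of 10 weeks. Both groups received cells of one tumour line, GLMT1 (GRS/A Lung Metastasis Tumor 1), under the skin of the back, and the genotype refers to the host only. Each excised tumour was homogenised whole and its RNA was hybridised to 1 Affymetrix array. Whatever host cells came with a tumour were therefore measured too, and in such bulk samples fewer cells of a type and less RNA per cell cannot be told apart. A single tumour line limits the model, and the labels name the 3 tumours of a group as biological replicates without pairing them.

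The deposited values of most probe sets hardly differed between arrays. Over the 45037 probe sets tested, the median range across the 6 arrays was 5.46 microunits, where 1 microunit is 1e-06 of a deposited log2 unit. Differences are therefore given in microunits and in residual SDs of the same probe set. They cannot be read as fold changes in RNA. The medians of 5 arrays lay between 6.5674 and 6.5676 log2 units, and that of the third TNKO tumour stood apart at 6.5698, by far more than most differences reported here. As deposited, the median difference (TNKO minus WT) over all 18193 genes was 0.200 microunits. It moved to -764 microunits when array medians were subtracted and to -560 microunits after quantile normalization, which turned nearly all genes negative. Without the third TNKO tumour the median over all genes was 8.05 microunits with array medians subtracted and 0 after quantile normalization. The negative shift of all genes on these scales thus rested on that 1 array, and directions below are those of the deposited scale unless a scale is named. Tnc, which encodes tenascin-C, was read by its brighter probe set at 9.014, 9.043 and 8.995 log2 units in WT tumours and at 8.797, 8.822 and 8.832 in TNKO tumours (adjusted p = 0.0537). The 18 bacterial and phage control RNAs added at hybridisation, which hold no mouse RNA, were also higher on average in TNKO, with a median of 16.8 microunits and groups that did not overlap for 16 of 18. Their part in the members' differences was not tested.

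As deposited, the member genes lay above their WT level in most TNKO tumours. Of 91 genes, 71 had a higher TNKO mean, beside 57.6% of all genes, whereas 2 of the 91 (2.2%), Cox8b and Cox7a1, did on each of the other scales, near the share of all genes (1.3% with array medians subtracted, 1.75% after quantile normalization). Without the third TNKO tumour, 88 of the 91 had a higher mean with array medians subtracted (96.7%, beside 88.8% of all genes), and 21 after quantile normalization (23.1%, beside 48.9%), where 23 were lower and the rest at 0. The median difference over the members was 3.52 microunits as deposited, or 1.45 residual SDs, beside 0.200 microunits and 0.283 residual SDs over all genes. It was -760 microunits with medians subtracted, beside -764 for all genes, and -719 after quantile normalization, beside -560. All 3 TNKO values lay above all 3 WT values in 41 genes, and all below in 4. Over all genes the corresponding shares were 15% and 11.1%. An unadjusted limma p under 0.05 was reached by 34 genes with a higher mean and by 2 with a lower mean, where 9.99% and 8.43% of all genes did so.

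After adjustment few members passed the threshold. Of the 180 member probe sets, 3 were called higher in TNKO and 0 lower at an adjusted p of 0.05 (limma, Benjamini-Hochberg over 45037 probe sets). Over all probe sets 0.175% were called in either direction and 0.0422% were called higher. At an unadjusted limma p under 0.05, 58 member probe sets were higher and 9 lower. The share over all probe sets was not counted, and over all genes, by brightest probe set, it was 9.99% and 8.43%. The groups did not overlap for 72 member probe sets with higher TNKO values and for 11 with lower values, beside 14.2% and 13.8% of all probe sets. The called probe sets belong to Atp5j2 and Atp5g1, subunits of the membrane part of ATP synthase, and to Ndufc2, an accessory subunit of complex I. The mean levels of the 91 genes lay between 5.66 and 13.3 log2 units with a median of 10.3, and 159 of the 180 member probe sets were brighter than the median of all probe sets. The range over the 6 tumours passed 1000 microunits in 3 of the 91 member genes, and in 470 of all 18193 genes. The median range was 11.77 microunits over the members and 5.73 over all genes.

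**Figure D1:**
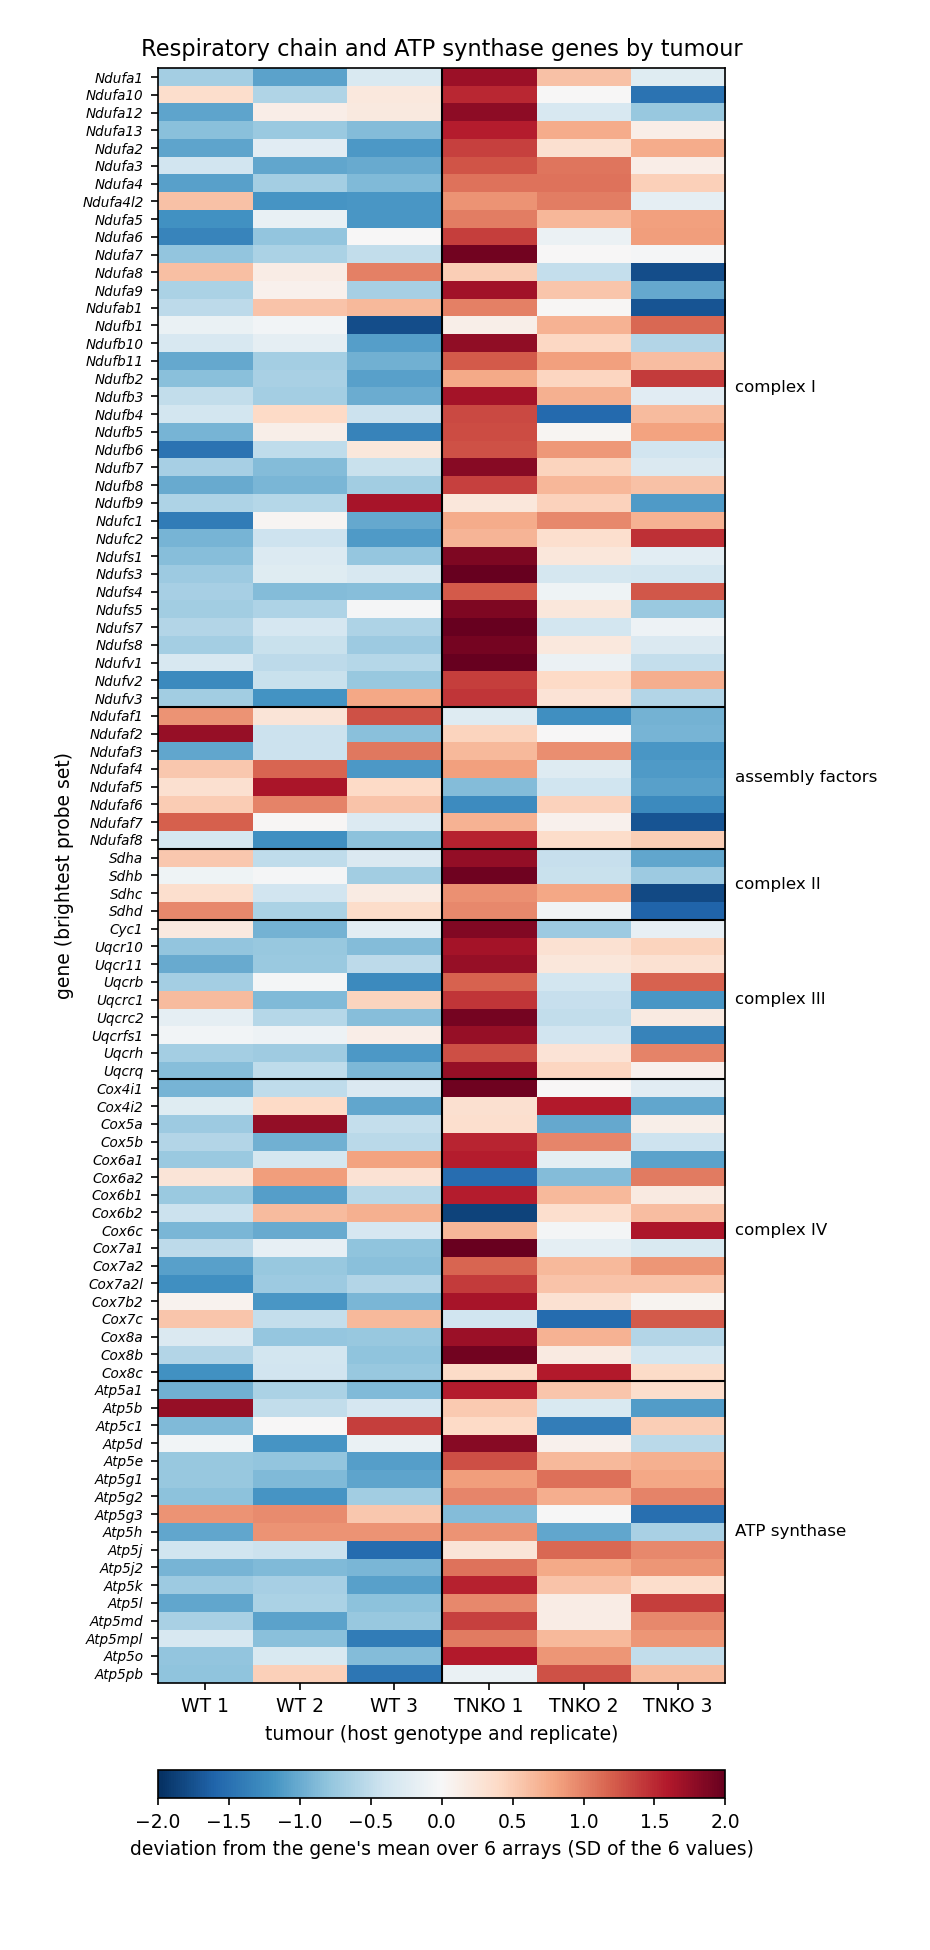
Deposited values of the 91 member genes in each of the 6 tumours, in rows ordered by complex, with colour giving the deviation from the gene's mean over the 6 tumours in SDs of its 6 values. The first TNKO tumour held the highest value in 59 of 91 genes on the deposited scale, and in 3609 of all 18193 genes. As deposited, 71 of 91 had a higher TNKO mean. With array medians subtracted 2 of 91 did, and 88 of 91 when the third TNKO tumour was also left out.

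The higher values were not shared evenly by the 3 TNKO tumours, which are named here by their replicate numbers and have no order. The first TNKO tumour held the highest of the 6 values in 59 genes, the second in 7 and the third in 9, and the WT tumours held it in 4, 6 and 6. Over all 18193 genes the TNKO tumours held it in 3609, 3748 and 3132 and the WT tumours in 2165, 2153 and 3386. The first TNKO tumour lay above all 3 WT tumours in 71 of 91 genes (78%, beside 36.2% of all genes). For the second TNKO tumour this held in 55 genes (60.4%, beside 38%), and for the third in 50 (54.9%, beside 33.2%). The lowest of the 6 values lay in the WT tumours in 21, 16 and 26 genes and in the TNKO tumours in 2, 5 and 21. Over all genes these counts were 3330, 2740 and 3930 in WT and 2294, 2663 and 3236 in TNKO. Without the first TNKO tumour, 64 of 91 genes had a higher TNKO mean and the median difference was 1.63 microunits, and without the third these were 79 genes and 5.9 microunits.

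Marker genes of other cell types were read in the same tumours, and 0 of them passed the adjusted threshold (limma). Ppargc1a, Cldn5, Elane, Mmp8 and Cd4 were higher as deposited at an unadjusted limma p under 0.05, which 9.99% of all genes also reached. The mean level of 4 brown adipocyte markers was 5.99, 5.98 and 5.99 log2 units in WT tumours and 6.24, 6.10 and 5.98 in TNKO tumours, and all 4 had a higher TNKO mean as deposited, 2 of them on each of the other scales. Among them, Cidea, a lipid droplet protein, read 5.99, 5.95 and 5.97 in WT and 6.75, 6.36 and 5.94 in TNKO, and Ucp1, the proton leak channel of brown fat, 5.86, 5.85 and 5.86 in WT and 6.10, 5.93 and 5.87 in TNKO. Both, like Ppargc1a, were highest in the first TNKO tumour, the one that also held most of the members' highest values. The remaining marker, Elovl3, was lowest in that tumour and highest in the third TNKO tumour. The 6 adipocyte markers measured, of 8 listed, had mean levels of 7.25, 7.03 and 6.96 in WT and 7.56, 7.45 and 7.17 in TNKO, with all 6 higher on average on all 3 scales. The 12 skeletal muscle markers went the other way, with mean levels of 7.00, 7.13 and 6.95 in WT and 6.44, 6.51 and 7.10 in TNKO and all 12 lower on average on all 3 scales. The 5 endothelial markers had mean levels of 7.3372 to 7.3373 in WT and 7.3374 to 7.3376 in TNKO, with all 5 higher as deposited, 1 after quantile normalization and 0 with medians subtracted. The 5 epithelial markers had mean levels of 8.8096 to 8.8097 in WT and 8.8093 to 8.8096 in TNKO. Of these, 4 had a lower TNKO mean as deposited and all 5 on both other scales. Of the remaining lists, the 5 hair markers had mean levels of 6.09 to 6.10 in WT, 6.09 and 6.13 in the first and second TNKO tumours and 8.23 in the third. The 6 slow or cardiac muscle markers had a lower TNKO mean in 6 of 6 on all 3 scales. The 4 macrophage, 4 neutrophil and 4 T cell markers all had a higher mean as deposited, whereas 1, 1 and 0 of them did with medians subtracted and 1, 2 and 0 after quantile normalization. The lowest mean level of any gene was 5.23 log2 units, so a value above 0 does not show that a marker was detected. Some markers lay below the median of every array (6.57). Among them were Myh4, Ucp1, Ppargc1a, Lep and Cidea, with mean levels of 5.73, 5.91, 5.94, 5.97 and 6.16. The part of these cell types in the members' differences was not tested.

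Promoter sequences of members were read from RefSeq on build GRCm38.p6 as 280 bases, 250 before the first listed transcription start and 30 after it. Of 91 members 74 had an entry, 5 of them with more than 1 start. Letters of transcription factor motifs named for mitochondrial genes were searched on both strands. The NRF1 core (GCGCATGCG), named for nuclear respiratory factor 1, occurred in 8 of 74 member promoters (10.8%) and in 1.72% of 27025 promoters of the same length. The ETS core (CCGGAAG), bound by factors such as GABP, occurred in 18 (24.3%, beside 8.7%), and the YY1 core (AAGATGGC) in 4 (5.41%, beside 2.38%). The MEF2 core (TAAAAATA) of muscle promoters occurred in 0 of 74 (beside 2.6%), the TATA box (TATAAA) in 8 (10.8%, beside 13.7%), the SP1 box (GGGCGG) in 34 (45.9%, beside 34.9%) and the E-box (CANNTG) in 52 (70.3%, beside 70%). Median GC content was 58.2% in member promoters and 52.5% in all, and was not adjusted for. These matches describe letters in the window and say nothing of binding. The promoters below belong to the pair of called ATP synthase genes, to Atp5g2, which encodes the same ring protein as Atp5g1, and to the muscle form of complex IV subunit 8, the member with the widest range over the tumours, with its general partner. They are written 5′ to 3′ on the gene's strand, with matches to the NRF1, ETS, YY1 and MEF2 cores in capitals, and the last 30 bases follow the start.
Atp5j2, chr5:145191512-145191791, minus strand: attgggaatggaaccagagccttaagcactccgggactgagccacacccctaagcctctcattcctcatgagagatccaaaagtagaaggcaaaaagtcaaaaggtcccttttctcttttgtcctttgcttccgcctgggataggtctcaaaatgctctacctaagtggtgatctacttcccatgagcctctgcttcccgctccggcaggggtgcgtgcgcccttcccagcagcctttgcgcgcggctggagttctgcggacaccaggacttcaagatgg
Atp5g1, chr11:96075602-96075881, minus strand: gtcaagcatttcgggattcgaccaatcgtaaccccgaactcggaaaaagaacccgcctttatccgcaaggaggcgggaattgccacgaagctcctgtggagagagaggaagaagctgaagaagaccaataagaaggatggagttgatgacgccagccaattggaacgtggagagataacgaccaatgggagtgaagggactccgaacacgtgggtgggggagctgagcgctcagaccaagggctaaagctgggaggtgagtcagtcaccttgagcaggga
Atp5g2, chr15:102671018-102671297, minus strand: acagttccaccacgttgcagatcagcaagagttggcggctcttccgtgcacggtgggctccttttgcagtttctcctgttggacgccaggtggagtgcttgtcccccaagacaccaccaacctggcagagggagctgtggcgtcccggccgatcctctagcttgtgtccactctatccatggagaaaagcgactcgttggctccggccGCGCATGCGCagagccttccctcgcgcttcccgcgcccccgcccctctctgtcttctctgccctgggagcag
Cox8a, chr19:7217587-7217866, minus strand: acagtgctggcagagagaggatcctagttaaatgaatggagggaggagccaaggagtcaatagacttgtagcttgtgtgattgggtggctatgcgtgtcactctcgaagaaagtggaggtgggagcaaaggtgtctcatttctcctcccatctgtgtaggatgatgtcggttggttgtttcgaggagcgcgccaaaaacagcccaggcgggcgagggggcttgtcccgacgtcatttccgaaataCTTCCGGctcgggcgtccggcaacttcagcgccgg
Cox8b, chr7:140900417-140900696, minus strand: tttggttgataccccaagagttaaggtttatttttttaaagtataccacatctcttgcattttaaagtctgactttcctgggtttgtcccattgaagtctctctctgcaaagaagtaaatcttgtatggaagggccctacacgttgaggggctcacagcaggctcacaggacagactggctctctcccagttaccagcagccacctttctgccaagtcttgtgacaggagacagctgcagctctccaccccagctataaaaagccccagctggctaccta
In Atp5g2 the capitals are a match to the NRF1 core on each strand, overlapping, from base -42 to -33 relative to the start. In Cox8a they are an ETS core on the opposite strand from base -5 to 1. The Atp5j2, Atp5g1 and Cox8b windows hold none of the 4 cores. Of the muscle and tissue forms of complex IV, 4 had a promoter entry, and 0 held the NRF1, ETS, YY1 or MEF2 core.

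ATP synthase held both genes called by their brightest probe set. Of its 17 genes, 13 had a higher TNKO mean as deposited, although the median, 6.29 microunits or 3.45 residual SDs, was -757 microunits with array medians subtracted and -687 after quantile normalization. The groups did not overlap in 10 genes upward and 1 downward. Atp5j2 encodes subunit f, a small subunit beside the membrane ring. Relative to the WT mean, Atp5j2 lay at -0.0967, 0.0933 and 0.00333 microunits in WT tumours and at 8.78, 7.31 and 7.87 in TNKO tumours. The 3 TNKO tumours stood together, well above WT tumours that differed by under 1 microunit. Atp5j2 rose by 7.99 microunits (SE 0.454, adjusted p = 0.0444, limma), or 15.1 residual SDs. The call was lost when any 1 array was left out (adjusted p = 0.0663 to 0.137) and on both other scales. Its probes are marked by the maker's suffix as matching transcripts of more than 1 gene. The other two Atp5j2 probe sets were higher by 22.4 and 7.35 microunits without overlap, with adjusted p-values of 0.0607 and 0.136.

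The c ring, the rotor through which protons pass, is built from 1 mature protein encoded by Atp5g1, Atp5g2 and Atp5g3. Atp5g1 lay at 0.85, 0.09 and -0.94 microunits around the WT mean in WT tumours and at 10.3, 11.8 and 9.94 in TNKO tumours. The groups lay far apart, and Atp5g1 rose by 10.7 microunits (SE 0.752, adjusted p = 0.0495, limma), or 11.3 residual SDs. This call too was lost when any 1 array was left out (adjusted p = 0.0721 to 0.151) and on both other scales. Its dimmer probe set went the other way, by -12.4 microunits (adjusted p = 0.187). Atp5g2 lay at 0.25, -0.93 and 0.68 microunits in WT and at 6.31, 5.49 and 6.35 in TNKO. All 3 TNKO tumours were higher, by 6.05 microunits on average (SE 0.56), with an adjusted p of 0.0585. Atp5g3 lay at 0.237, 0.327 and -0.563 microunits in WT and at -3.74, -1.78 and -5.16 in TNKO. Here all 3 TNKO tumours were lower, by -3.56 microunits on average (SE 0.976, adjusted p = 0.165). The 3 genes for the same protein thus did not share a direction on the deposited scale. With medians subtracted Atp5g1, Atp5g2 and Atp5g3 were at -753, -758 and -767 microunits. After quantile normalization they were at -94.9, -1489 and -205. All 3 were thus negative on both other scales, like nearly all genes.

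The other ATP synthase parts are read by 14 genes. All 5 small membrane subunits, Atp5j2 among them, had TNKO values above WT values without overlap as deposited, with a median of 11.4 microunits that turned negative with the shift of all genes on the other scales. Atp5k, subunit e, lay at 2.72, 4.78 and -7.5 microunits in WT and at 67.6, 39.9 and 33.7 in TNKO (difference 47.1, adjusted p = 0.125). Atp5l, subunit g, lay at -5.32, 4.89 and 0.437 in WT and at 44.4, 24.4 and 54.7 in TNKO (difference 41.2, adjusted p = 0.121). Both had separate groups but also a wide spread among TNKO tumours. The small subunits Atp5md and Atp5mpl, also separate, differed by 11.4 and 3.52 microunits (adjusted p = 0.122 and 0.107). In the catalytic head, Atp5a1, the alpha subunit, was at -1.56, 2.25 and -0.69 microunits in WT and at 28.7, 16.5 and 14.1 in TNKO (difference 19.7, adjusted p = 0.126). Atp5b, the catalytic beta subunit, was at 1.24, -0.683 and -0.553 in WT and at 0.187, -0.523 and -1.22 in TNKO (difference -0.52, adjusted p = 0.746). The groups of Atp5b overlapped while those of Atp5a1 did not, although the proteins alternate in the head, and whether the genes differ from each other was not tested. In the central stalk, Atp5e, the epsilon subunit, was higher without overlap by 8.43 microunits (adjusted p = 0.0702), Atp5d, the delta subunit, by 4.99 with overlap, and Atp5c1, the gamma subunit, was at -0.0333. The 4 genes of the peripheral stalk, which keeps the head from turning, had a median of 4.31 microunits, with 3 higher. Atp5j was separate, at 1.77, 1.59 and -3.35 microunits in WT and at 4.70, 8.74 and 7.86 in TNKO, while Atp5o, the link between stalk and head, differed by 6.29 with overlap, Atp5pb by 2.32 and Atp5h by -0.0133.

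**Figure D2:**
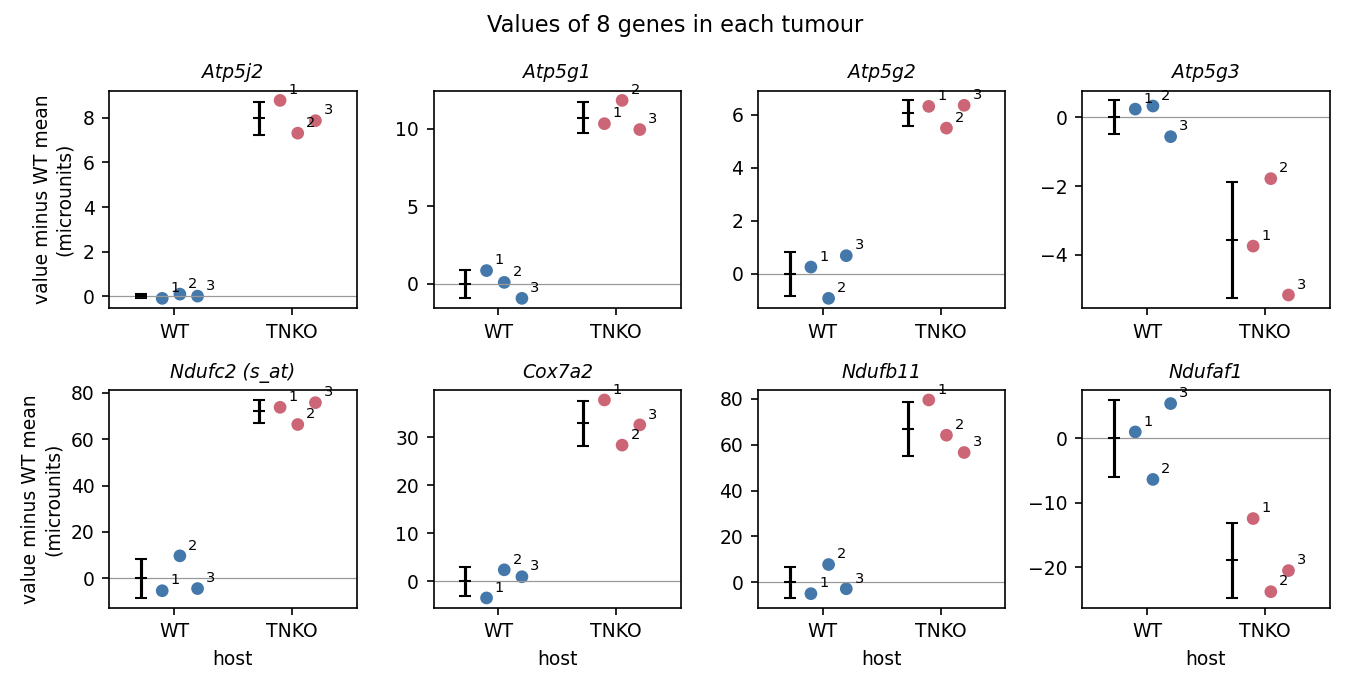
Deposited values of selected members in the 3 WT (blue) and 3 TNKO (red) tumours, in microunits from the gene's WT mean, with bars for the mean ± SD of each group. Each point is 1 tumour; Atp5j2, Atp5g1, Atp5g2, the called Ndufc2 probe set, Cox7a2 and Ndufb11 lie higher in all 3 TNKO tumours on the deposited scale, with negative differences under both other scales, and Atp5g3 and Ndufaf1 lie lower.

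Complex I, the NADH dehydrogenase, had 33 of 36 genes with a higher TNKO mean as deposited, and its median of 9.18 microunits was -755 microunits with medians subtracted and -759 after quantile normalization. Without the first TNKO tumour the deposited median was 3.28 microunits. The groups did not overlap in 19 genes, all of them upward, and 14 genes had an unadjusted p under 0.05. The first TNKO tumour was highest of the 6 in 28 genes. The 3 genes with a lower mean were Ndufa8, Ndufab1 and Ndufb9, and the lowest difference was -2.14 microunits.

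The 6 nuclear core subunits of complex I among the members, most of which carry the flavin or iron-sulphur clusters, all had a higher TNKO mean as deposited, with a median of 17.6 microunits that turned negative with the same shift. Ndufv2 lay at -25.4, 21.6 and 3.88 microunits in WT and at 126, 69.8 and 88.3 in TNKO (difference 94.6, SE 20.04, adjusted p = 0.12). Ndufs1, the largest subunit, lay at -12.03, 19.3 and -7.28 in WT and at 132, 45.4 and 22.7 in TNKO (difference 66.8, adjusted p = 0.341). Ndufv1, which binds NADH, lay at 2.07, -0.739 and -1.33 in WT and at 34.9, 4.90 and -0.0923 in TNKO (difference 13.2, adjusted p = 0.534). In each the first TNKO tumour was the highest, as it was in all 6 core genes, and the third TNKO tumour reached into the WT range for Ndufv1. The iron-sulphur proteins Ndufs7 and Ndufs8 and the subunit Ndufs3 had differences of 21.9, 12.3 and 2.25 microunits.

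Among the 30 accessory subunits, which surround the core, 27 had a higher TNKO mean as deposited. Their median of 5.02 microunits likewise turned negative with the shift of all genes. In residual SDs the deposited median was 1.77, above that of the core, and 13 of the 30 had an unadjusted limma p under 0.05. Ndufb11 lay at -4.95, 7.76 and -2.81 microunits in WT and at 79.5, 64.1 and 56.6 in TNKO (difference 66.7, SE 7.29, adjusted p = 0.0668). Ndufa4, now assigned to complex IV in other work, lay at -27.1, 26.6 and 0.563 in WT and at 269, 268 and 184 in TNKO (difference 241, SE 29.9, adjusted p = 0.0702). Ndufb8 lay at -1.06, -0.303 and 1.37 in WT and at 17.6, 12.05 and 11.4 in TNKO (difference 13.7, SE 1.97, adjusted p = 0.0803). The groups of all 3 were well apart as deposited, and all 3 missed the adjusted threshold and were negative under both other scales. Ndufa5 and Ndufb2 were also separate with wide differences of 89.4 and 52.5 microunits (adjusted p = 0.114 and 0.097). Ndufa5 lay at -19.5, 36.9 and -17.4 in WT and at 99.7, 80.1 and 88.5 in TNKO, so that its WT tumours spread more than its TNKO tumours. Ndufs4, whose loss is a known cause of complex I deficiency, lay at 1.57, -0.887 and -0.679 in WT and at 24.4, 8.44 and 24.5 in TNKO (difference 19.1, adjusted p = 0.156). At the other end, Ndufa9, Ndufa10, Ndufa12 and Ndufb6 differed by 0.257, 0.193, 0.34 and 0.48 microunits with overlapping groups. Ndufa4l2, the hypoxia-related relative of Ndufa4, differed by 0.283 microunits (adjusted p = 0.605). Ndufc2 was read by 4 probe sets, all with a higher TNKO mean. The called one lay at -5.33, 9.72 and -4.39 microunits in WT and at 73.8, 66.3 and 75.8 in TNKO, and rose by 72.0 (SE 5.28, adjusted p = 0.0495, limma), or 10.4 residual SDs. The call held without the second WT tumour (adjusted p = 0.0449) and was lost without any other array (0.119 to 0.151) and on both other scales. The brightest one lay at -1.17, 4.78 and -3.61 in WT and at 17.4, 13.4 and 26.4 in TNKO (difference 19.0, SE 4.29, adjusted p = 0.128). Both carry the same suffix as the Atp5j2 probe set and separated the groups, and the dimmest of the 4 differed by 2.26 microunits with overlap.

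The Ndufaf assembly factors, which help build complex I and do not stay in it, had a higher TNKO mean in 2 of 8 genes on the deposited scale, with a median of -0.368 microunits, which was 0.0543 without the third TNKO tumour and -0.716 without the third WT tumour. Ndufaf1 lay at 0.989, -6.39 and 5.40 microunits in WT and at -12.5, -23.8 and -20.5 in TNKO (difference -18.9, SE 4.51, adjusted p = 0.138). Ndufaf8 lay at 5.96, -5.73 and -0.228 in WT and at 31.6, 15.7 and 17.5 in TNKO (difference 21.6, SE 5.66, adjusted p = 0.154). Neither had overlapping groups, and they ran in opposite directions. Ndufaf5 and Ndufaf6 were also lower without overlap, by -0.496 and -3.24 microunits (adjusted p = 0.352 and 0.275). Ndufaf2, Ndufaf4 and Ndufaf7 differed by -0.418, -0.317 and -0.233 and Ndufaf3 by 1.504, all with overlap. The first TNKO tumour was the highest of the 6 in 1 of these 8 genes. On the other scales, where subunits were negative too, the median of the factors was -764 (medians subtracted) and -565 microunits (quantile). Whether factors and subunits differ from each other was not tested.

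**Figure D3:**
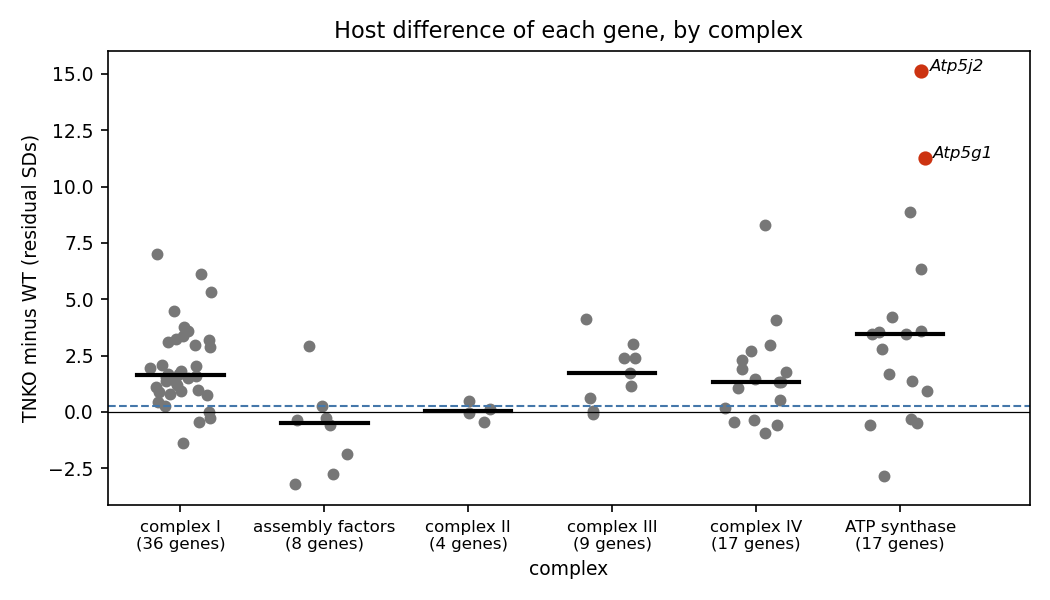
Difference between TNKO and WT means of each member gene in residual SDs of its probe set, by complex, with black bars at the median of each complex, a dashed line at the median of all genes (0.283), and red points past the adjusted threshold. ATP synthase had the highest median, 3.45, and the assembly factors the lowest, -0.473, on the deposited scale; all complex medians were below 0 on both other scales, like the median of all genes.

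Complex II, succinate dehydrogenase, the citrate cycle enzyme that feeds electrons into the chain, had the median nearest 0 of the complexes as deposited. Of its 4 genes 2 had a higher TNKO mean as deposited, and its median of 0.157 microunits was -763.6 microunits with medians subtracted and -989 after quantile normalization. On the deposited scale it ran from -1.11 without the first TNKO tumour to 1.48 without the third. None of the 4 had separate groups. Sdha, the flavoprotein that oxidises succinate, differed by 1.69 microunits (adjusted p = 0.944), with 18.8 in the first and -9.85 in the third TNKO tumour. Its direction turned when the second WT tumour or the first TNKO tumour was left out, giving -0.508 and -6.87 microunits. Sdhb, the iron-sulphur subunit, differed by 0.50 (adjusted p = 0.783), and the membrane anchors Sdhc and Sdhd by -0.186 and -0.373 (adjusted p = 0.977 and 0.814). The third TNKO tumour was the lowest of the 6 in all 4.

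Complex III, which passes electrons from ubiquinol to cytochrome c, had 8 of 9 genes with a higher TNKO mean as deposited, and its median of 3.86 microunits was -760 microunits with medians subtracted and -799 after quantile normalization. On the deposited scale it was 0.623 without the first TNKO tumour, 1.965 without the second WT tumour, 7.02 without the second TNKO tumour and 5.97 without the third. The first TNKO tumour was highest in 9 of 9 genes. The separate groups were those of 4 small accessory subunits, Uqcr10, Uqcr11, Uqcrh and Uqcrq. Uqcrh, the hinge protein, lay at 4.89, 3.94 and -8.82 microunits in WT and at 63.7, 33.5 and 54.9 in TNKO (difference 50.7, SE 9.36, adjusted p = 0.104). Uqcr10 lay at 0.0723, 0.462 and -0.535 in WT and at 23.0, 10.3 and 11.6 in TNKO (difference 14.98, SE 3.8, adjusted p = 0.149). Uqcr11 lay at -9.53, 0.517 and 9.02 in WT and at 95.0, 37.4 and 40.3 in TNKO (difference 57.5, SE 18.2, adjusted p = 0.198). In Uqcr10 and Uqcr11 the first TNKO tumour stood far above the other two. The catalytic subunits overlapped: Cyc1, cytochrome c1, differed by 3.86 microunits (adjusted p = 0.713), with 13.1, -2.45 and 0.923 in the TNKO tumours, and Uqcrfs1, the Rieske iron-sulphur protein, by 0.181 (adjusted p = 0.994), with 15.2, -3.22 and -11.4. Uqcrq, the last of the 4 separate genes, lay at 16.7, 7.91 and 5.65 microunits in TNKO (difference 10.1, adjusted p = 0.202). The core proteins Uqcrc1 and Uqcrc2 differed by -1.06 and 0.687 microunits.

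Complex IV, cytochrome c oxidase, had 13 of 17 genes with a higher TNKO mean as deposited, and its median of 1.46 microunits was -762 microunits with medians subtracted and -567 after quantile normalization. On the deposited scale it was 0.756 without the first TNKO tumour and 2.19 without the second. It held the widest differences of the members. Cox7a2, the general form of subunit 7a, lay at -3.42, 2.43 and 0.99 microunits in WT and at 37.8, 28.4 and 32.6 in TNKO (difference 32.9, SE 3.03, adjusted p = 0.0585). Cox6b1, which links the monomers of the dimer, lay at 0.46, -2.72 and 2.26 in WT and at 21.4, 13.1 and 8.81 in TNKO (difference 14.4, SE 3.72, adjusted p = 0.151). Cox8c, a form of subunit 8 known from testis, differed by 5.42 microunits (adjusted p = 0.171). All 3 had separate groups as deposited and were negative under both other scales. Among the further general subunits, Cox6c, Cox5b and Cox7a2l were separate with differences of 2.58, 1.46 and 0.904 microunits (adjusted p = 0.214, 0.286 and 0.181), and Cox5a and Cox7c were at -0.29 and -6.13 with overlap. Cox7a2l, which takes part in joining complexes III and IV, lay at 1.20, 0.757 and 0.754 in the TNKO tumours. Cox4i1, the general form of subunit 4, differed by 1.84 microunits without overlap (adjusted p = 0.42), and Cox4i2, its form known from lung and low oxygen, by 0.11 (adjusted p = 0.859).

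The muscle forms of complex IV subunits varied far more than all other members, and Cox8b and Cox7a1 stayed higher on average, and Cox6a2 lower, on all 3 scales. Cox8b read 6.923, 6.941 and 6.905 log2 units in WT tumours and 7.127, 6.984 and 6.940 in TNKO tumours. The first TNKO tumour was far above the rest, the second lay above all WT tumours, and the third lay within the WT range. The difference was 93952 microunits (SE 53522, 1.34 residual SDs, adjusted p = 0.403). Cox7a1 read 6.3873, 6.3907 and 6.3846 in WT and 6.4115, 6.3905 and 6.3894 in TNKO, with only the first TNKO tumour above all WT tumours (difference 9636 microunits, SE 6921, adjusted p = 0.502). Without that tumour the differences were 39059 microunits for Cox8b and 2448 for Cox7a1. Cox6a2 read 6.8195, 6.8210 and 6.8196 in WT and 6.8149, 6.8166 and 6.8215 in TNKO. There the first and second TNKO tumours were the lowest and the third the highest (difference -2346 microunits, SE 1900.1, adjusted p = 0.552), and its dimmer probe set had the same order of TNKO tumours, with a difference of -59.7 microunits. The Cox6a2 difference ran from -970.1 microunits without the first TNKO tumour to -4259.7 without the third. The general partners stood in a much narrower range. Cox8a lay at 2.10, -1.06 and -1.03 microunits in WT and at 15.1, 8.45 and 0.157 in TNKO (difference 7.90, adjusted p = 0.37). Cox6a1 differed by 0.0367 microunits (adjusted p = 0.961), and its direction turned when the first WT or the first TNKO tumour was left out, giving -0.0217 and -0.0967.

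**Figure D4:**
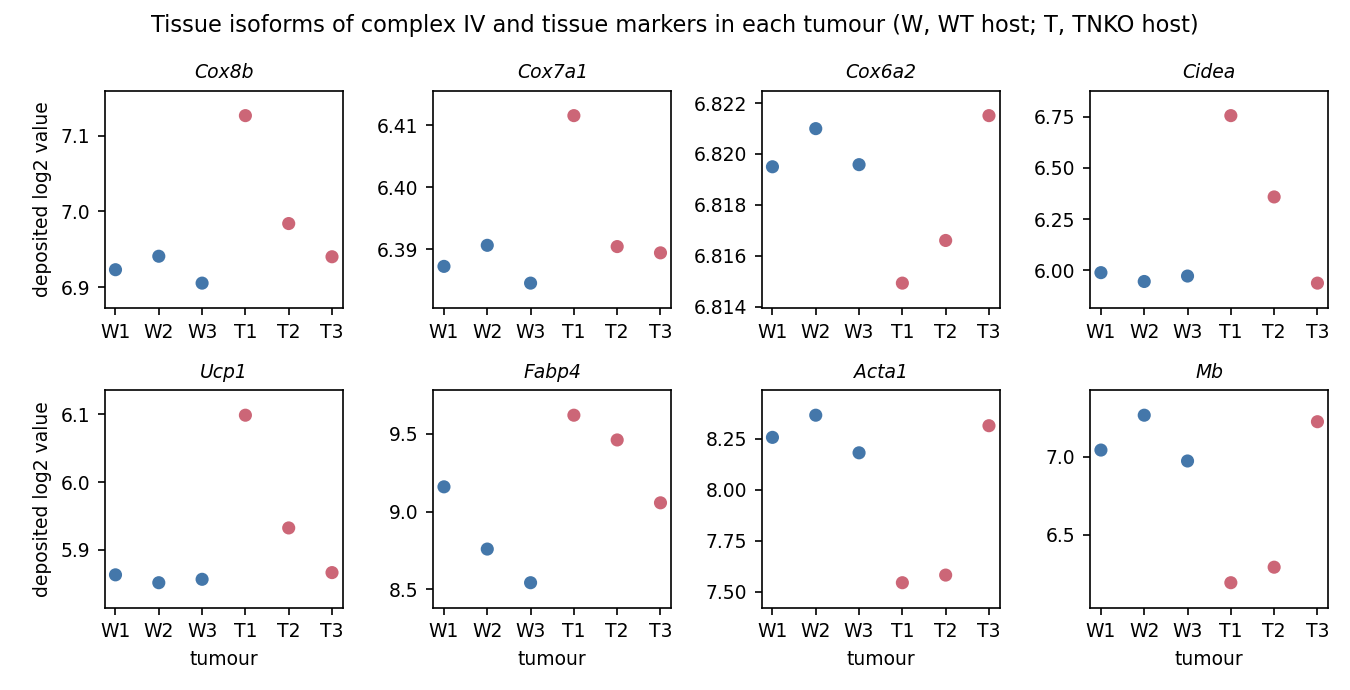
Deposited log2 values of the muscle forms Cox8b, Cox7a1 and Cox6a2 and of marker genes in each of the 6 tumours (WT blue, TNKO red, 1 point per tumour). Cox8b and Cox7a1 were highest in the first TNKO tumour, as were Ucp1, Cidea and Fabp4. Cox6a2 was highest in the third TNKO tumour and lowest in the first.

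Values of fat and muscle markers in the same tumours stand beside these forms. Cox8b, Ucp1 and Cidea ranked the TNKO tumours alike, with replicate 1 highest and replicate 3 lowest. The other brown adipocyte markers did not, while all 6 general adipocyte and all 5 endothelial markers did. The order was thus not particular to brown adipocyte markers. In TNKO tumours Elovl3 lay at -45.1, 142 and 759 microunits from its WT mean, and Ppargc1a at 6.46, 4.64 and 6.03. The 6 general adipocyte markers were all highest in replicate 1, with mean TNKO levels of 7.56, 7.45 and 7.17 log2 units. Acta1, skeletal muscle actin, read 8.26, 8.37 and 8.18 log2 units in WT and 7.54, 7.58 and 8.31 in TNKO. Mb, myoglobin, read 7.04, 7.27 and 6.97 in WT and 6.19, 6.29 and 7.22 in TNKO. Both were low in the first and second TNKO tumours and high in the third, the tumours in which Cox6a2 was low and high. Among the WT tumours, the second held the highest value of Cox6a2, Acta1 and Mb, and also of Cox8b and Cox7a1. The first WT tumour held the highest WT value of Ucp1 and Cidea. The part of muscle or fat tissue in these values was not tested.

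Agreement between probe sets of a gene was incomplete. Of 91 genes 40 had 1 probe set and 51 had 2 or more. In 30 of these 51 all probe sets had a higher TNKO mean as deposited, in 6 all had a lower mean, and the remaining 15, Atp5g1 and Atp5a1 among them, had both signs.

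Genes of the same pathway outside the 4 complexes and ATP synthase were taken from a list of 71, of which 67 were measured. Of these 35 had a higher and 32 a lower TNKO mean as deposited, and all 67 had a lower mean on both other scales, like nearly all genes. As deposited, 0 passed the adjusted threshold (limma). An unadjusted limma p under 0.05 was reached by 7 higher and 6 lower of the 67, near the shares of all genes (9.99% and 8.43%). Their median difference was 0.148 microunits, close to that of all genes. The citrate cycle stood nearest the members in direction: 10 of its 12 measured genes had a higher mean as deposited (none with the shift of all genes on the other scales). The first TNKO tumour was highest in 11 of 12. The median was 5.06 microunits, or 0.734 residual SDs, beside 1.45 residual SDs for the members. Only 1 of the 12 was separate upward, beside 15% of all genes. An unadjusted limma p under 0.05 with a higher mean was reached by 1, beside 9.99% of all genes. Fh1, fumarase, lay at 0.483, 6.18 and -6.66 microunits in WT and at 184, 71.7 and 62.3 in TNKO (difference 106, adjusted p = 0.22), separate and highest in the first. Cs, citrate synthase, differed by 3.31 (adjusted p = 0.659), with 10.7, 0.94 and -1.68 in TNKO. Cycs, cytochrome c, which carries electrons from complex III to IV, was higher without overlap by 10.6 microunits (adjusted p = 0.169).

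Factors that assemble the complexes were mixed for complex IV and mostly lower for the others as deposited, and turned negative with all genes on the other scales. A higher mean was found in 2 of 6 measured genes for complex I, 1 of 4 for complex II and 1 of 6 for complex III. For ATP synthase, whose list includes its inhibitor, it was 1 of 4. The medians of these 4 lists lay between -2.40 and -0.161 microunits, beside 0.200 over all genes. Of 14 measured complex IV assembly genes 8 had a higher mean as deposited. Cox18, an inner membrane insertase, differed by -64.4 microunits (adjusted p = 0.0758), Surf1 by -20.2 (adjusted p = 0.174) and Cox11, a copper carrier, by -11.2 (adjusted p = 0.156), while Cox16 differed by 46.4 (adjusted p = 0.123). Each of these 4 had separate groups. Among 11 regulators of mitochondrial genes 5 had a higher mean. Ppargc1a, the coactivator that raises mitochondrial gene expression in brown fat and muscle, was higher without overlap by 5.71 microunits (adjusted p = 0.0702), and Polrmt, the mitochondrial RNA polymerase, was lower without overlap by -27.7 (adjusted p = 0.0782). Nrf1 differed by -0.0447 (adjusted p = 0.971) and Gabpa by 0.343 (adjusted p = 0.923), both with overlapping groups.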

How the data were processed

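RNA of 3 WT and 3 TNKO tumours was measured on Affymetrix arrays. The deposited log2 values were normalized by the authors, with R 2.7.2 per the submitters' processing notes. How probes were summarized and normalized, and the log base, is not given in the sources used here, and log2 is read from the values' range. Precision is limited by the number of arrays, which have no depth. After 64 control probe sets were left out, TNKO minus WT was tested over 45037 probe sets with limma 3.58.1 in R 4.3.3 (lmFit, eBayes, two-sided, Benjamini-Hochberg, threshold 0.05). Gene symbols came from the platform table of 2016. The replicate numbers name tumours and do not pair them. The members and lists were chosen with earlier results of these data known. Genes named were, per complex, the 3 with the smallest unadjusted p, every called gene, the tissue forms with their partners and the 3 widest in range. All other named genes were chosen after their values were seen. The code was tested on simulated data. Alternatives were other scalings, variance models, array weights, a level filter, an offset of 16, the mean over probe sets, a replicate block, leaving out each array and, chosen after seeing the data, both scalings without the third TNKO tumour.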

Additional observations from a re-analysis of the deposited data

How the results depend on the processing

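Differences are in microunits, and the cause of each change was not tested unless stated. Same-numbered tumours share only a number in the labels; their deviations from group means correlated at 0.0977, -0.0328 and 0.0521 (Spearman, across genes), and 2 of 6 tumours correlated best with their own number. The 3 called probe sets of Atp5j2, Atp5g1 and Ndufc2 stayed called with a trend, a robust fit, array weights and the offset; 0 were called after quantile normalization, with medians subtracted and with the replicate block, which leaves differences as they are; with the block 48 member probe sets were higher at an unadjusted p under 0.05, and 58 without it. Among probe sets above the median level, where fewer were tested, 9 were called. Leaving out 1 array gave 0 to 1 called higher (Ndufc2, without the second WT tumour) and 0 to 1 called lower (a dimmer Atp5c1 probe set at -33.7, without the third TNKO tumour). Over all probe sets, 79 calls became 285 above the median level and 68 with medians subtracted. They became 0 with the block or quantile normalization and 0 to 73 without 1 array. Separate groups upward fell from 72 to 0 under both scalings. Downward, 11 became 25 (quantile), 1 (medians), 6 (above the median level) and 13 to 18 without 1 array. The share of all probe sets with separate groups was not counted at these settings.

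Complex medians after quantile normalization were -759 (complex I), -565 (assembly factors), -989 (II), -799 (III), -567 (IV) and -687 (ATP synthase), and with medians subtracted -755, -764, -763.6, -760, -762 and -757. Without 1 array they ran from 3.28 to 11.8 for I, -0.716 to 0.0543 for assembly factors, -1.11 to 1.48 for II, 0.623 to 7.02 for III, 0.756 to 2.19 for IV and 5.89 to 7.69 for ATP synthase. With the mean over probe sets they were 5.51 (I), -0.457 (assembly factors), 2.52 (II), 2.61 (III), 1.78 (IV) and 4.81 (ATP synthase). Counting Ndufa4 and Ndufa4l2 with complex IV, chosen after seeing the data, left 9.18 for I and 1.46 for IV. Leaving out the third TNKO tumour under each scaling was also chosen after seeing the data. With medians subtracted the complex medians were then 19.7 (I), 7.88 (assembly factors), 9.31 (II), 13.8 (III), 9.66 (IV) and 15.5 (ATP synthase), with 4 member probe sets separate upward and 1 downward, and 1 called higher. After quantile normalization they were 0 (I, III, IV and ATP synthase), 65.1 (assembly factors) and -409 (II), with 20 separate upward and 25 downward, and 4 called higher and 10 lower. Over the member genes 21 differences were then higher, 23 lower and the rest exactly 0, so nothing is read from these calls. Of all 45037 probe sets, 1424 were called after quantile normalization without the third TNKO tumour, and 100 with medians subtracted without it. The share of all probe sets with separate groups was not counted at either setting.

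The genes below turned negative under both scalings, except Cox6a1 under quantile normalization. Under quantile normalization the differences were -1132 (Ndufb11), -673 (Ndufa4), -743 (Ndufb8), -4573 (Ndufc2, brightest) and -2570.0 (Ndufc2, called), -582 (Ndufa4l2), -93.6 (Ndufaf8), -2027 (Sdha), -1258 (Sdhb), -1363 (Uqcrh), -1059 (Uqcr10), -719.9 (Uqcr11), -5972 (Cox4i1), -567 (Cox4i2), 0 (Cox6a1), -333 (Cox6b1), -2940.2 (Cox7a2), -783 (Cox8a), -557 (Cox8c), -967 (Atp5j2), -94.9 (Atp5g1) and -1489 (Atp5g2). With medians subtracted they were, in the same order, -697, -523, -750.1, -745, -692, -764, -742, -762, -763, -713, -749, -706, -762, -764, -764, -749, -731, -756, -758, -756, -753 and -758. Without 1 array, signs turned for Sdha (-6.87 to 7.45), Sdhb (-0.302 to 0.968), Sdhd (-0.85 to 0.17), Cox6a1 (-0.0967 to 0.143) and Cox4i2 (-0.0125 to 0.236).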
